A study of Mus musculus with 39 samples.

Results

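The genes described here are 9 noncoding genes of the mouse that carry small nucleolar RNAs (snoRNAs): Gas5, Snhg1, Snhg3, Snhg5, Snhg6, Snhg8, Snhg9, Snhg11 and Snhg12. They were chosen by name, and all 9 were present among the 24421 genes of the RNA-seq tables. The study isolated sfGFP+ neocortical nuclei from mice of 13 to 16 weeks that carried the Arc-driven creERT2 transgene and the R26 CAG-Sun1-sfGFP-Myc allele. All mice, of both sexes, received tamoxifen 5 h before a social interaction test, so no group lacked the transgene or the drug, and the labels name the material activated neuronal nuclei. Nuclei were taken either by INTACT, in which tagged nuclei are captured on antibody-coated magnetic beads, or by FANS, in which the fluorescent nuclei are sorted by flow cytometry. Nuclear RNA-seq of 10000 nuclei per library was analysed in batch 1 (4 FANS and 4 INTACT libraries), batch 2 (7 and 4) and batch 3 (7 and 5). Each batch is given by the study as a distinct biological source, and the RNA of batch 1 is given as the most intact. ATAC-seq of 50000 nuclei was analysed in 3 libraries per technique, which were technical replicates of 1 source.

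A snoRNA host gene is transcribed and spliced like a messenger RNA, but in most such genes the useful product is made from the introns. After splicing, the excised intron is trimmed to a stable snoRNA that stays in the nucleus and guides the chemical modification of ribosomal RNA. The joined exons of these hosts carry only short or poorly conserved reading frames, and for several of them, Gas5 included, the spliced RNA is known to be exported and degraded in the cytoplasm by nonsense-mediated decay. Many hosts belong to the 5' terminal oligopyrimidine class, whose RNAs begin with a run of C and T in the gene, as those of ribosomal proteins do. A host gene therefore gives rise to RNAs of different fates from 1 transcript, and a comparison of isolation techniques on nuclei can be made for each of them.

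The RefSeq annotation of GRCm38.p6, which has the coordinates of the mm10 build used by the authors, placed 29 snoRNA loci inside the 9 hosts on the same strand. Of these, 9 had a row of their own in the tables, in 6 of the hosts. Gas5 (chr1:161034601-161038539, plus strand) held 8 loci, of which Snord47 had a row, and Snhg1 (chr19:8723487-8726326, plus strand) held 8, of which Snord22 had one. Snhg12 (chr4:132308678-132311024, plus strand) held 4 loci, and all 4 had rows: Snora16a, Snora44, Snora61 and Snord99. Snhg6 (chr1:9942025-9944118, minus strand) held Snord87, Snhg9 (chr17:24719531-24719965, minus strand) held Snora78, and Snhg8 (chr3:123507552-123508336, minus strand) held Snora24. No locus inside Snhg3 (chr4:132351933-132353686, minus strand), Snhg5 (chr9:88521052-88522897, minus strand) or Snhg11 (chr2:158375713-158386474, plus strand) had a row, so only the host RNA was compared for these 3.

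The 8 snoRNAs that could be compared with their hosts are shown first because their rows are set against the host rows below. All 8 lie in introns and share 0 bases with the host exons. The C/D box snoRNAs guide methylation of ribose, and the H/ACA box snoRNAs guide the conversion of uridine to pseudouridine. Capitals mark the C box TGATGA and the D box CTGA of the first 4, and the ACA near the 3' end of the others. The sequences are those of RefSeq on GRCm38.p6, written 5' to 3' with T for U.
Snord47, chr1:161038092-161038156, plus strand: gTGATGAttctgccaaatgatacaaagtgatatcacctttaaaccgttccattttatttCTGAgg
Snord22, chr19:8725866-8725991, plus strand: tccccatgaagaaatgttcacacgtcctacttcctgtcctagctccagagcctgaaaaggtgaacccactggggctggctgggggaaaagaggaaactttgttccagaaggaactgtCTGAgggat
Snord87, chr1:9942470-9942543, minus strand: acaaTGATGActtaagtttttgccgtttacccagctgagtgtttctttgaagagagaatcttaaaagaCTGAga
Snord99, chr4:132310703-132310758, plus strand: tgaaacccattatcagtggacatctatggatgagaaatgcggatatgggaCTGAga
Snora78, chr17:24719676-24719832, minus strand: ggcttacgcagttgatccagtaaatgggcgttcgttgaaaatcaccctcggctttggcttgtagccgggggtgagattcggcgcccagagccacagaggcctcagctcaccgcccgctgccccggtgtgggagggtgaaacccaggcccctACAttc
Snora16a, chr4:132309465-132309600, plus strand: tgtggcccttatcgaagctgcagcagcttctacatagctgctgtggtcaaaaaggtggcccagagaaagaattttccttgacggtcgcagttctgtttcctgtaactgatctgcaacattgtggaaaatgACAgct
Snora44, chr4:132309953-132310069, plus strand: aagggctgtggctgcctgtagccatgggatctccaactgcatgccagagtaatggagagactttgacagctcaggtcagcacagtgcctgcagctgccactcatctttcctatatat
Snora61, chr4:132310307-132310368, plus strand: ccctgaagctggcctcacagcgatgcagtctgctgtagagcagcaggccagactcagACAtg
The letters TGATGA were found near the start of Snord47 and Snord87 only, and Snora44 as annotated did not hold ACA near its end. These are matches of letters within the annotated spans, which can differ from the mature ends.

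Snora24 was listed at 0 in all 31 RNA libraries, with 0 reads. Its 130 bases lie wholly inside the single annotated exon of Snhg8, which spans 785 bases, whereas the other snoRNAs with rows lie between exons. The sources name HTSeq as the counter but not its mode or strand setting, so the 0 is a value of the table and not a measure of the snoRNA. For the others, a read of 70 bases from an unspliced host intron could fall on the snoRNA locus, so mature snoRNA and host precursor cannot be told apart in their rows.

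Overlapping genes on the other strand limit 3 hosts. Gas5 overlaps Zbtb37, Snhg6 overlaps Mcmdc2, and Snhg9 overlaps Rps2, the gene of a protein of the small ribosomal subunit. Since no strand setting is stated, reads of such pairs cannot be told apart where the genes overlap.

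The tables hold normalized read counts, which are the reads of a gene after division by the size factor of its library, set separately in each batch. Reads on genes ranged from 4853224 to 6066759 per FANS library and from 8621143 to 11028713 per INTACT library in batch 1. They ranged from 5402820 to 7292908 in batch 2 and from 4205665 to 5716318 in batch 3. In batch 1, the reads that fell outside annotated features made up 81.9 to 84.3% of the FANS libraries and 73.6 to 75.3% of the INTACT libraries. Neuronal marker genes were present in every library, and the summed vascular markers did not exceed 20.6 normalized counts. Summed neuronal markers were 21566 to 22059 in FANS and 22896 to 23875 in INTACT of batch 1, without overlap, where 4 of the 8 were higher and 3 lower at an adjusted p under 0.05 and 0 were called. The sums overlapped in batch 2 (21688 to 25779 against 23384 to 26933) and in batch 3 (16972 to 21735 against 17462 to 18422). Summed oligodendrocyte markers were 5895 to 7345 in FANS and 9375 to 9936 in INTACT of batch 1, where 4 of the 6 markers were called higher in INTACT, and 6519 to 12667 against 12555 to 15058 in batch 2, with 2 of 6 called higher. Summed astrocyte markers were 6179 to 6857 against 7514 to 7688 in batch 1, with 3 of 6 called higher, and batch 2 gave 4900 to 6457 against 5882 to 7183 with 1 of 6. Summed microglia markers were lower in INTACT of batch 1 (90.0 to 118 against 62.3 to 79.0, 1 of 4 called lower) and both oligodendrocyte precursor markers together were low but higher in INTACT (5.15 to 19.9 against 20.6 to 32.9). No marker was at 0 in every library of a batch. In batch 3 both sums overlapped between techniques (oligodendrocytes 1598 to 2150 against 1976 to 2449, astrocytes 5413 to 7071 against 5885 to 6463) and 0 of the 12 markers were called by limma, edgeR or DESeq2, with 3 at an unadjusted p under 0.05 in each. Depth, the share outside features and these markers moved with technique in batch 1, and in batch 2 the share outside features (81.9 to 84.0% in FANS, 79.8 to 81.4% in INTACT) and the oligodendrocyte markers did so too. Their part in the host gene results was not tested.

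The 9 hosts differed widely in abundance, and Snhg11 stood far above the others. Snhg11, a long noncoding RNA known from neurons of the brain, had a mean normalized count of 85754 in batch 1, 76333 in batch 2 and 62780 in batch 3, which placed it at rank 5, 4 and 4 of the 24421 genes. Gas5, known for its rise in growth-arrested cells and for binding of the glucocorticoid receptor by its RNA, followed at rank 319, 474 and 536. The other 7 lay between rank 4905 and rank 10150. Together the 9 hosts took 1.08 to 1.44% of the reads on genes, but without Snhg11 only 0.0311 to 0.0613%.

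For a comparison between genes, the normalized counts were divided by the annotated exon length in kb. On this scale Snhg11 reached 14017 ± 992 per kb (SD, n = 8 libraries) in batch 1 and Gas5 4432 ± 603. These 2 genes overlapped neither each other nor any other host in any batch. Next came Snhg9 at 812 ± 219 and Snhg1 at 628 ± 121 per kb, whose ranges overlapped although Snhg9 was the higher in all 8 libraries. Snhg12 (371 ± 53.0) and Snhg3 (363 ± 45.7) did not differ beyond their spread. Snhg6 (219 ± 30.5) and Snhg5 (199 ± 36.5) overlapped as well, and Snhg8 was lowest at 154 ± 30.4 per kb. The same order held in batch 2, and in batch 3 with the exception that Snhg3 (194 ± 30.8) came before Snhg12 (164 ± 28.5, n = 12 for both).

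**Figure D1:**
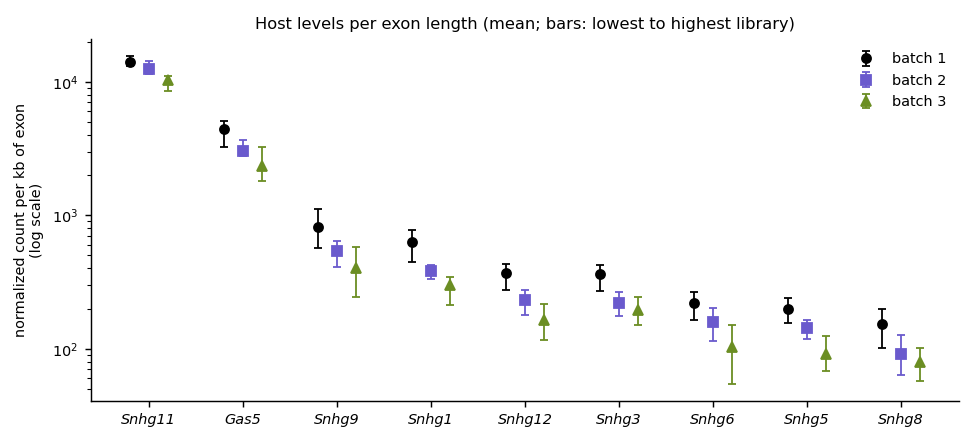
Normalized counts per kb of annotated exon of the 9 host genes, with a symbol for the mean of each batch and bars from the lowest to the highest library, on a log axis. Snhg11 and then Gas5 sit above the other hosts in each batch, with batch 1 means of 14017 and 4432, and Snhg8 has the lowest batch 1 mean, 154.

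The effect of the technique was first asked within batch 1. There the host rows, which count reads on exons of nuclear RNA and do not separate spliced RNA from precursor, were higher in INTACT than in FANS for all hosts but Snhg11. At a Benjamini-Hochberg adjusted p under 0.05 in limma, 6 of the 9 hosts rose in INTACT (Gas5, Snhg1, Snhg5, Snhg8, Snhg9 and Snhg12), where 18.6% of the 15114 genes tested did so, and 1 fell (Snhg11), where 17.5% did. With the added threshold of 1.5-fold only Snhg9 was called higher, against 4.03% of all genes. The 2 techniques did not overlap for 6 hosts, all higher in INTACT (Snhg1, Snhg5, Snhg6, Snhg8, Snhg9 and Snhg12), against a background of 17.1%, and 16.5% of all genes were lower without overlap. The median log2 fold change, INTACT over FANS on the log2(normalized count + 1) scale, was 0.34 over the hosts and 0.01 over all genes. In RNA from pooled nuclei, fewer nuclei of a type and less RNA per nucleus cannot be told apart.

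**Figure D2:**
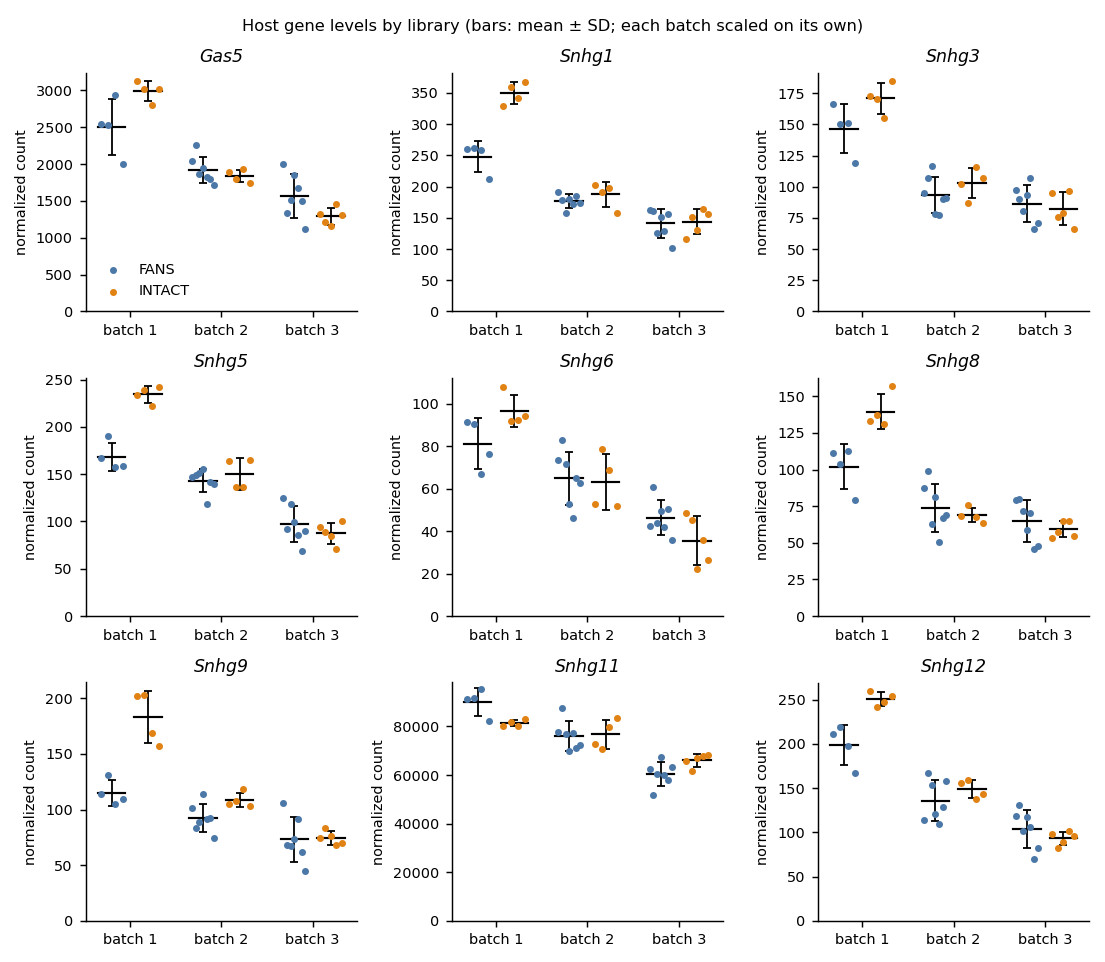
Normalized counts of the 9 host genes in each RNA library on axes that start at 0, by batch and technique, with the mean and SD as lines and bars. In batch 1 the INTACT points of Snhg1, Snhg5, Snhg6, Snhg8, Snhg9 and Snhg12 all sit above the FANS points, and in batches 2 and 3 the techniques overlap for all 9 hosts.

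Snhg9, the short host of Snora78, showed the largest change among the hosts. Its normalized counts in batch 1 were 114, 131, 105 and 109 in FANS and 202, 203, 169 and 157 in INTACT. Every INTACT library lay above every FANS library, and the rise was 1.58-fold (log2 fold change 0.66, SE 0.112, adjusted p = 4.19e-05). Rps2, whose start lies 98 bp from that of Snhg9 on the other strand, rose by a log2 fold change of 0.67 in the same libraries (adjusted p = 2.57e-05).

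Snhg1 and Snhg5, which carry C/D box snoRNAs, followed. Snhg1 stood at 260, 262, 258 and 212 in FANS and at 329, 360, 342 and 368 in INTACT, and rose 1.41-fold (log2 0.50, SE 0.081, adjusted p = 2.75e-05). Snhg5 was measured at 167, 190, 158 and 159 in FANS and at 234, 239, 222 and 242 in INTACT, a rise of 1.39-fold (log2 0.48, SE 0.089, adjusted p = 1.46e-04). Neither gene overlapped between the techniques. Slc3a2, which encodes an amino acid transporter subunit and starts 118 bp from Snhg1 on the other strand, also rose (log2 0.33, adjusted p = 2.63e-04). Zbtb37, which starts 248 bp from Gas5 on the other strand, did not pass (log2 -0.07, adjusted p = 0.574).

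Snhg8, Snhg12 and Gas5 rose by less than 1.5-fold as well. Snhg8 had 111, 104, 113 and 79.5 normalized counts in FANS and 133, 137, 131 and 157 in INTACT (log2 0.46, SE 0.123, adjusted p = 0.00445). Snhg12 had 211, 219, 198 and 167 against 260, 242, 247 and 254 (log2 0.34, SE 0.091, adjusted p = 0.00428), again without overlap. Gas5 had 2544, 2537, 2934 and 1999 in FANS and 3133, 3023, 2797 and 3014 in INTACT, where 1 FANS library reached into the INTACT range (log2 0.27, SE 0.071, adjusted p = 0.00410). In DESeq2 on the recovered reads Gas5 did not pass (log2 0.25, adjusted p = 0.0729), whereas the other 5 hosts that rose passed under all 15 alternatives run.

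Snhg3, the host of the Snora73 pair, and Snhg6 did not pass the test in batch 1. Snhg3 had 166, 150, 151 and 119 normalized counts in FANS and 173, 170, 155 and 185 in INTACT, with overlap (log2 0.23, 95% interval 0.02 to 0.44, adjusted p = 0.105). Snhg6 had 91.3, 90.7, 66.8 and 76.4 against 108, 91.8, 92.3 and 94.5, with each INTACT library the higher (log2 0.26, 95% interval -0.01 to 0.52, adjusted p = 0.144).

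Snhg11 alone was lower in INTACT. Its normalized counts were 91206, 91757, 95544 and 82029 in FANS and 80155, 81996, 80316 and 83034 in INTACT. The fourth FANS library lay inside the INTACT range, and the log2 fold change was -0.15 (SE 0.045, adjusted p = 0.0135). It no longer passed the adjusted p with no filter on low values (adjusted p = 0.108) and without FANS replicate 1 (log2 -0.14, adjusted p = 0.0515). Quantile normalization set the difference to 0.00, since a gene of fixed rank is given the same value in each library.

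In batches 2 and 3 no host was called. In batch 2, 0 of the 9 passed an adjusted p under 0.05 in limma, in edgeR or in DESeq2, and only Snhg9 had an unadjusted p under 0.05 in limma (0 hosts in edgeR and in DESeq2). Among all genes of batch 2, 0.0941% were called higher and 0.0336% lower in INTACT, and 0.834% and 0.309% passed the adjusted p alone. The techniques overlapped for all 9 hosts, whereas 1.59% of all genes were higher and 1.40% lower without overlap. In batch 3 again 0 hosts passed in any of the 3 tools, with 2 hosts, Gas5 and Snhg6, at an unadjusted p under 0.05 in limma and 3 in edgeR and in DESeq2, which added Snhg11. There 0.0139% of all genes were called higher and 0.346% lower, and 1.18% and 0.519% passed the adjusted p alone. Again no host was free of overlap, against 0.997% of all genes higher and 0.589% lower. The median log2 fold change of the hosts was 0.06 in batch 2 and -0.10 in batch 3, against -0.00 for all genes in both.

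The values of batch 2 showed little difference. Snhg9 ranged from 74.7 to 114 (median 91.6) in 7 FANS libraries and was 105, 108, 118 and 103 in INTACT (log2 0.24, 95% interval 0.02 to 0.46, adjusted p = 0.316). Gas5 ranged from 1721 to 2253 (median 1870) in FANS and was 1888, 1804, 1931 and 1743 in INTACT (log2 -0.06, 95% interval -0.18 to 0.06). Snhg1 ranged from 158 to 192 (median 179) and was 202, 192, 197 and 158 in INTACT (log2 0.08, 95% interval -0.09 to 0.25). All 3 genes overlapped between the techniques, and the difference in effect between batches 1 and 2 did not pass for Gas5 (0.33 on the log2 scale, SE 0.139, adjusted p = 0.153) or Snhg1 (0.42, SE 0.153, adjusted p = 0.0879). Snhg11 ranged from 69816 to 87715 (median 76843) in FANS and was 72754, 70744, 79863 and 83631 in INTACT (log2 0.01, 95% interval -0.13 to 0.16).

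In batch 3 several hosts leaned to lower values in INTACT, within overlapping ranges. Gas5 ranged from 1126 to 2001 (median 1511) in FANS and was 1321, 1216, 1154, 1455 and 1315 in INTACT (log2 -0.26, 95% interval -0.44 to -0.08, adjusted p = 0.154). Snhg6 ranged from 36.0 to 61.0 (median 43.7) in FANS and was 48.4, 45.2, 22.1, 35.9 and 26.4 in INTACT (log2 -0.42, 95% interval -0.78 to -0.06, adjusted p = 0.295). Neither passed the adjusted threshold. Snhg11 ranged from 51686 to 67441 (median 60357) in FANS and was 65579, 61494, 67185, 67909 and 68096 in INTACT (log2 0.13, 95% interval 0.00 to 0.26, adjusted p = 0.376). The remaining 6 hosts had log2 fold changes of -0.13 (Snhg5, Snhg12) to 0.06 (Snhg9).

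Whether the effect of technique differed between batches was asked in 1 limma fit over the 31 libraries. Of the 9 hosts, 3 differed at an adjusted p under 0.05, against 18.1% of the 14332 genes tested: Gas5 (adjusted p = 0.0116), Snhg5 (0.0187) and Snhg1 (0.0412). For Gas5 the effect of batch 1 exceeded that of batch 3 by 0.53 on the log2 scale (SE 0.135, adjusted p = 0.00291), and for Snhg5 by 0.61 (SE 0.164, adjusted p = 0.00512). For Snhg1 the difference was 0.46 (SE 0.148, adjusted p = 0.0189). In edgeR on the recovered reads 6 hosts differed, with Snhg8, Snhg9 and Snhg11 added. The share of all genes that differed in edgeR was not taken, so that count has no background. The mean effect of the 3 batches was higher in INTACT for Snhg9 (0.32, SE 0.081, adjusted p = 0.00243) and Snhg1 (0.20, SE 0.060, adjusted p = 0.00920), against 12.7% of all genes, and 0 hosts were lower. The batches differ in animals and in RNA integrity, which cannot be told apart.

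**Figure D3:**
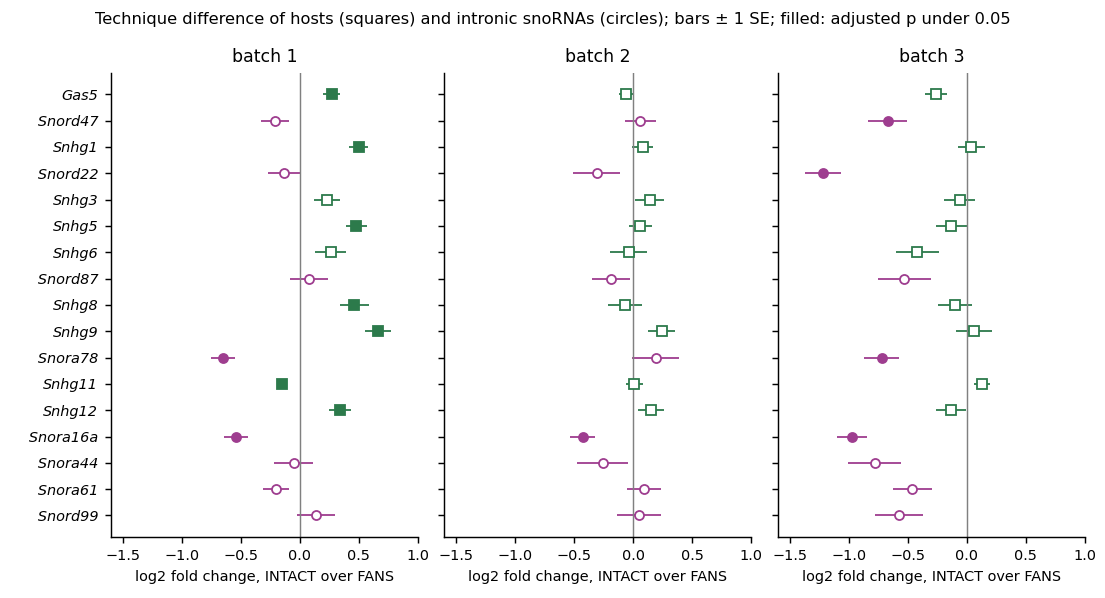
Log2 fold change of INTACT over FANS for the 9 host genes (squares) and the 8 intronic snoRNAs tested (circles), one panel per batch, with bars of 1 SE and filled symbols at an adjusted p under 0.05. Most hosts lie right of 0 in batch 1 (median 0.34) and most snoRNAs left of 0 in batch 3 (median -0.69).

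The snoRNAs inside the introns differed most in batch 3, towards lower values in INTACT. In batch 1, 2 of the 8 tested were lower in INTACT at an adjusted p under 0.05 (Snora78 and Snora16a) and 0 were higher, where 17.5% of all genes were lower and 18.6% higher, so 2 of 8 was near the background. With the threshold of 1.5-fold 1 was called lower, against 3.94% of all genes. In batch 2, 1 was lower at an adjusted p under 0.05 (Snora16a, against 0.309% of all genes) and none was called. In batch 3, 4 of the 8 were called lower (Snord22, Snora16a, Snora78 and Snord47), against 0.346% of all genes, and all 8 had a negative log2 fold change with an unadjusted p under 0.05. The median log2 fold change of the 8 was -0.16, -0.07 and -0.69 in the 3 batches. Other snoRNA rows of the tables had similar medians (-0.14, -0.13 and -0.68), and 9 of 92, 2 of 92 and 32 of 88 of them were called lower, while 4, 0 and 0 were called higher.

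Snord22, which is carried by Snhg1 and has been tied to processing of the small subunit ribosomal RNA, fell most. In batch 3 it ranged from 118 to 206 (median 142) in FANS and was 52.5, 81.2, 43.1, 68.8 and 89.3 in INTACT. The techniques did not overlap, which held for 2 of the 8 snoRNAs and for 0.589% of all genes, and Snord22 fell by 57.0% (log2 -1.22, SE 0.153, adjusted p = 2.86e-05). It was called under all 19 alternatives run. In batch 1 it was 135, 224, 131 and 122 in FANS and 147, 142, 141 and 114 in INTACT, with overlap (log2 -0.13, 95% interval -0.41 to 0.15).

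Snora16a, in the first of the snoRNA-bearing introns of Snhg12, was the only one of the 8 at an adjusted p under 0.05 in each batch. In batch 1 it was 188, 254, 195 and 214 in FANS and 132, 158, 149 and 141 in INTACT, with no overlap (log2 -0.54, SE 0.103, adjusted p = 1.69e-04). It passed 1.5-fold there without FANS replicate 1 (log2 -0.60) and again without INTACT replicate 2. In batch 2 it ranged from 106 to 161 (median 132) in FANS and was 107, 97.3, 95.7 and 89.1 in INTACT (log2 -0.43, SE 0.109, adjusted p = 0.0480). That result rests on its threshold, since 12 of 18 alternatives gave adjusted p-values above 0.05, with log2 fold changes of -0.48 to -0.38 over all 18. In batch 3 it ranged from 118 to 227 (median 148) in FANS and was 87.5, 83.3, 63.2, 73.9 and 76.1 in INTACT, without overlap. It fell by 48.9% (log2 -0.97, SE 0.127, adjusted p = 3.96e-05) and was called under all 19 alternatives.

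Snora78, the snoRNA of Snhg9, fell in the same libraries in which its host rose. In batch 1 it was 196, 244, 181 and 231 in FANS and 141, 134, 133 and 131 in INTACT (log2 -0.65, SE 0.102, adjusted p = 1.87e-05), and the techniques did not overlap. Without FANS replicate 2 the log2 fold change was -0.58, just under 1.5-fold, with an adjusted p of 2.36e-04. In batch 2 it ranged from 128 to 345 (median 222) in FANS and was 327, 321, 161 and 185 in INTACT (log2 0.19, 95% interval -0.20 to 0.58). In batch 3 it ranged from 145 to 366 (median 188) and was 127, 141, 99.3, 119 and 149 in INTACT, with overlap (log2 -0.72, SE 0.149, adjusted p = 0.00708). The batch 3 call was lost without FANS replicate 1 (log2 -0.58, adjusted p = 0.0113) and without INTACT replicate 3 (log2 -0.63, adjusted p = 0.0554). Snora64, the snoRNA of the neighbouring Rps2, was lower as well, by a log2 fold change of -0.72 (adjusted p = 2.14e-05) in batch 1 and of -0.67 (adjusted p = 0.00475) in batch 3.

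Snord47, the 1 snoRNA of Gas5 with a row, was called only in batch 3 and less firmly. It ranged from 200 to 568 (median 273) in FANS and was 177, 167, 158, 256 and 178 in INTACT, with overlap (log2 -0.67, SE 0.165, adjusted p = 0.0285). The adjusted p rose above 0.05 with no filter (log2 -0.67, adjusted p = 0.0927) and in DESeq2 (log2 -0.74, adjusted p = 0.104), at a fold no smaller. Without FANS replicate 1 the fold fell under 1.5 (log2 -0.51, adjusted p = 0.0429). The adjusted p was also above 0.05 without FANS replicate 6 (log2 -0.65, adjusted p = 0.0529) and without INTACT replicate 1 (-0.65, 0.0785), 2 (-0.63, 0.0738), 3 (-0.61, 0.137) or 5 (-0.65, 0.0891), each with a fold above 1.5. The other 4 snoRNAs, which were not called in any batch, had batch 3 log2 fold changes of -0.78 (Snora44, adjusted p = 0.0664), -0.57 (Snord99, 0.171), -0.53 (Snord87, 0.282) and -0.46 (Snora61, 0.165). Their batch 3 means ran from 21.3 in INTACT for Snora44 to 151 in FANS for Snora61, and in batches 1 and 2 their log2 fold changes lay between -0.26 and 0.14.

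The effect of technique on 3 of the 8 snoRNAs differed between batches in the joint fit, against the same 18.1% of all genes: Snord22 (adjusted p = 0.00830), Snora78 (0.0206) and Snora16a (0.0385). In edgeR on the recovered reads Snora16a did not pass (adjusted p = 0.0536), while Snord22 and Snora78 did. In the mean over the 3 batches 5 of the 8 were lower in INTACT, against 12.4% of all genes. These were Snora16a (log2 -0.65, SE 0.073, adjusted p = 5.97e-09), Snord22 (-0.55), Snora78 (-0.39), Snora44 (-0.36) and Snord47 (-0.27).

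The contrast within a transcription unit was then taken directly, as the log2 ratio of the summed snoRNA rows to the host row in each library, which does not depend on library scaling. Of 15 comparisons, 5 hosts in 3 batches, 2 passed an adjusted p under 0.05 in a two-sided exact permutation test, both in batch 3 and both with a lower ratio in INTACT. Those were Snord22 to Snhg1 and Snora78 to Snhg9. A ratio of this kind shows unequal change of the rows and does not say which of them moved. The same ratio over protein-coding hosts with snoRNA rows tested gave the background, and there too it was mostly lower in INTACT. The median difference was -0.43, -0.21 and -0.68 in batches 1, 2 and 3 over 62, 62 and 60 such hosts, beside -0.56, -0.14 and -0.55 over the 5 described here. Lower ratios are therefore not particular to these 5.

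For Snhg1 in batch 3 the log2 ratio ranged from -0.23 to 0.56 (median 0.12) in FANS and was -1.13, -0.89, -1.58, -1.24 and -0.80 in INTACT. The groups did not overlap, and the ratio fell by 58.0% (difference -1.25, exact permutation p = 0.00126, the smallest that 7 against 5 libraries allow, adjusted p = 0.0189). For Snhg9 the ratio ranged from 0.99 to 1.83 (median 1.57) in FANS and was 0.76, 0.75, 0.38, 0.80 and 1.08 in INTACT (difference -0.78, exact permutation p = 0.00253, adjusted p = 0.0189). Here 1 INTACT library reached into the FANS range. For Gas5 (difference -0.40, exact permutation p = 0.0215) and Snhg12 (-0.55, exact permutation p = 0.0253) the adjusted p was 0.0536. For Snhg6 the difference was -0.11 (exact permutation p = 0.794). In this batch 4 of the 5 had a lower ratio at an unadjusted p under 0.05 and 1 of the 5 did not overlap, where 48.3% and 16.7% of the protein-coding hosts did so.

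In batch 1 the ratio was lower in INTACT without overlap for 4 of the 5 (Gas5, Snhg1, Snhg9 and Snhg12), and for 29.0% of the protein-coding hosts. It was higher without overlap for 0 of the 5 and for 1.61% of the protein-coding hosts. The log2 ratio of Snora78 to Snhg9 was 0.77, 0.89, 0.78 and 1.08 in FANS and -0.51, -0.60, -0.34 and -0.26 in INTACT, a difference of -1.31. The snoRNA row was thus the higher of the pair in each FANS library and the lower in each INTACT library. The differences were -0.63 for Snhg1, -0.56 for Snhg12 and -0.48 for Gas5, and each of the 4 reached an exact permutation p of 0.0286, the smallest that 4 against 4 libraries allow, with an adjusted p of 0.0536. The ratio of Snord87 to Snhg6 overlapped (difference -0.18, exact permutation p = 0.657). In batch 2, where 7 against 4 libraries allow a p of 0.00303, the 5 differences lay between -0.39 and 0.12 with exact permutation p-values of 0.200 to 0.876. There 0 of the 5 ratios were lower without overlap, beside 1.61% of the protein-coding hosts, and 0 of the 5 had an unadjusted p under 0.05, beside 14.5% with a lower ratio.

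**Figure D4:**
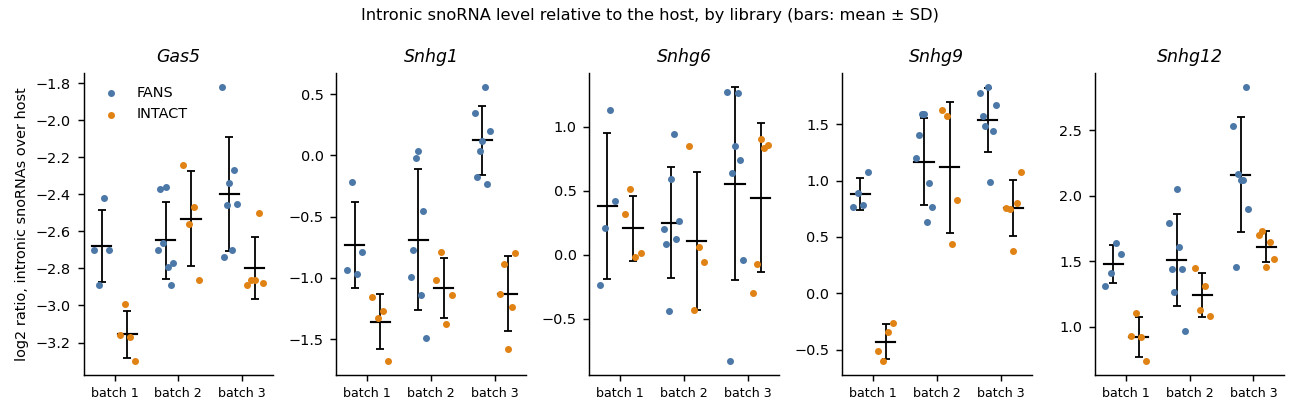
Log2 ratio of the summed intronic snoRNA rows to the host row for 5 host genes, one point per RNA library, by batch and technique, with the mean and SD as lines and bars. INTACT points lie below FANS points without overlap in batch 1 for Gas5, Snhg1, Snhg9 and Snhg12 and in batch 3 for Snhg1, and they overlap in batch 2.

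Related genes gave a frame for the batch 1 changes, to be read against all genes tested, of which 18.6% rose and 17.5% fell at an adjusted p under 0.05 and 4.03% and 3.94% did so with 1.5-fold. A further 12 noncoding genes were listed by name as snoRNA hosts, and their loci were not searched for snoRNAs. Of these, 7 rose and 2 fell at an adjusted p under 0.05 in batch 1 (median log2 fold change 0.31, against 0.01 for all genes). With 1.5-fold Dancr was higher (log2 0.64), while Meg3 (-0.82) and Snhg14 (-0.63), long nuclear RNAs of imprinted regions, were lower. Of 68 protein-coding genes with a Snora, Snord or Scarna locus inside their span on the same strand, 40 rose and 7 fell (median 0.28). Whether these loci lie in introns was not checked. Of the 68, 9 were called higher, among them Eef2, which encodes a translation elongation factor (log2 0.71), and the ribosomal protein genes Rpl12 (0.85) and Rps2 (0.67). Of 20 genes for proteins that assemble or bind snoRNAs, 6 rose and 1 fell (median 0.15), and Nhp2, an H/ACA core protein, was called higher (log2 0.72). Of 17 nonsense-mediated decay genes 4 rose and 5 fell (median -0.00), and none was called by limma, edgeR or DESeq2. Of the 114 genes of these 4 lists, 0 were called in batches 2 and 3 by any of the 3 tools, with 17 at an unadjusted p under 0.05 in limma in each batch (12 to 18 in the other tools). At an adjusted p under 0.05 alone, 0 of them passed in batch 2 in limma and in edgeR (DESeq2 passed 3), while those that passed in limma in batch 3 were Srcap higher with Rpl37 and Hspa8 lower among the protein-coding hosts, and the decay helicase Upf1 higher (log2 0.23).

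The ATAC-seq lists were used to ask how open the start sites of the hosts were. Each list gives the peaks of 1 library, and the height used here is the fold enrichment at the peak summit over its local background. All 9 hosts had a peak over an annotated start in all 6 libraries, whereas 60.1% of 26180 genes had a peak within 3 kb of a start in each library. For 7 of the 9 hosts the peak was lower in INTACT without overlap, against 53.7% of the 15747 genes with a peak in each library, and for none was it higher, against 1.82%. The median height over these genes was 14.3 in FANS and 11.8 in INTACT, with a median log2 ratio of -0.22, so lower peaks in INTACT were common to most promoters. With 3 against 3 libraries the smallest exact permutation p is 0.100, and no single host could pass 0.05.

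Snhg3 showed the largest difference in peak height. Its heights were 18.0, 18.6 and 19.1 in FANS and 12.6, 10.5 and 13.1 in INTACT, lower by 35.0% (log2 -0.62, exact permutation p = 0.100). Snhg12 had 14.8, 16.4 and 16.1 against 10.3, 10.2 and 13.3 (log2 -0.48). Both genes lie on chromosome 4, and neither overlapped between the techniques.

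Snhg11 had the lowest peak of the hosts although its RNA was the most abundant. Its heights were 7.98, 7.85 and 8.25 in FANS and 5.08, 4.68 and 6.20 in INTACT (log2 -0.59). These heights fell at percentile 14.3 of all genes with a peak in FANS and at percentile 6.23 in INTACT. Fold enrichment is relative to the local background, so it is not a count of open alleles.

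Snhg6 had the highest peak, with 22.6, 21.9 and 20.6 in FANS and 20.0, 18.2 and 21.7 in INTACT, and Gas5 had 12.3, 12.7 and 12.9 against 11.0, 11.7 and 12.9. These 2 were the hosts whose techniques overlapped (exact permutation p = 0.200 and 0.400). Snhg1 (mean 20.5 in FANS and 17.3 in INTACT), Snhg5 (16.9 and 14.0), Snhg9 (14.6 and 11.4) and Snhg8 (13.9 and 12.1) were lower in INTACT without overlap, with log2 ratios of -0.36 to -0.20. Without INTACT replicate 3, whose list is the longest of that technique with 123895 peaks, all 9 hosts were lower without overlap. The share of all genes was not taken in that setting, so the count has no background. The starts of Slc3a2 (118 bp from Snhg1), Rps2 (98 bp from Snhg9) and Zbtb37 (248 bp from Gas5) on the other strand lie within the same peaks, so the height belongs to both genes of a pair.

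**Figure D5:**
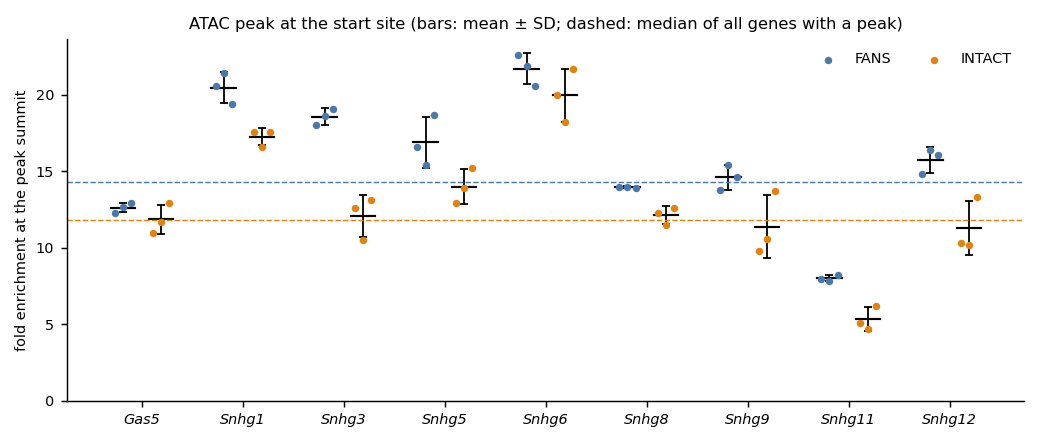
Fold enrichment of the peak over the start site of each host gene in the 6 ATAC-seq libraries, with replicates as points, their mean and SD as lines and bars, and dashed lines at the median over all genes with a peak (14.3 in FANS and 11.8 in INTACT). INTACT lies below FANS without overlap for 7 of the 9 hosts, by 35.0% for Snhg3 (18.6 to 12.1) and 33.7% for Snhg11 (8.03 to 5.32), and the techniques overlap for Gas5 and Snhg6.

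The peaks cover the annotated starts, whose letters can be read from the genome. The 50 bases before and the 50 bases from each annotated start are shown because they hold features that several of these hosts share. These are a TATA sequence and a run of pyrimidines that begins near the start. Capitals mark TATA 20 to 40 bases before the start, and the longest run of C or T that begins within 5 bases of the start where it has 4 or more letters. The windows are from RefSeq promoters on GRCm38.p6, written 5' to 3' on the strand of the gene. For Gas5, which has 2 annotated starts, the window of the start at position 161035166 is shown, and Snhg6 was not matched.
Gas5, chr1:161035116-161035215, plus strand: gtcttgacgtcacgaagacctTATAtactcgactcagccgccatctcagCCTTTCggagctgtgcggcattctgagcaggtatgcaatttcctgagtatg
Snhg1, chr19:8723437-8723536, plus strand: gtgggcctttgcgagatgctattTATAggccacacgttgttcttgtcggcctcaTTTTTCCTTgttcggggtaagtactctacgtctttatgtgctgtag
Snhg8, chr3:123508287-123508386, minus strand: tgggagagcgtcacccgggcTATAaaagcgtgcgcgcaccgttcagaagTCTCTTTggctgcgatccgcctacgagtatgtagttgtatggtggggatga
Snhg12, chr4:132308628-132308727, plus strand: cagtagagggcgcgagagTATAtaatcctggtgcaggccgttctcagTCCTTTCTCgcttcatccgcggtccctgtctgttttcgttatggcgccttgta
Snhg5, chr9:88522848-88522947, minus strand: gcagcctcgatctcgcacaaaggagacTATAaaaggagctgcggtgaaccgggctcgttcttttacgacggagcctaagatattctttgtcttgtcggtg
Snhg3, chr4:132353637-132353736, minus strand: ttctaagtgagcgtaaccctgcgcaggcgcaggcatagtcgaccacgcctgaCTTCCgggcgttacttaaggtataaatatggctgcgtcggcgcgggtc
Snhg9, chr17:24719916-24720015, minus strand: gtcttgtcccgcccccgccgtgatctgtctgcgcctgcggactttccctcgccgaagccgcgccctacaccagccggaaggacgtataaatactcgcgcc
Snhg11, chr2:158375663-158375762, plus strand: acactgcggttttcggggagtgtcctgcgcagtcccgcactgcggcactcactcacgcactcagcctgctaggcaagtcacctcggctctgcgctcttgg
TATA in that position was found in 5 of the 8 hosts (Gas5, Snhg1, Snhg5, Snhg8 and Snhg12), and in 5.81% of 32851 promoter windows of the same table. The other start of Gas5, at position 161034601, held neither TATA there nor a run of over 3 letters, so by window the count was 5 of 9. A pyrimidine run of 6 or more letters that begins within 5 bases of the start was found in Gas5 (6), Snhg1 (9), Snhg8 (7) and Snhg12 (9). In Snhg1 the run begins 4 bases after the annotated start, which is thus not within it. Runs of 6 or more lay in 4 of 9 windows against 12.1% of the promoters, and runs of 8 or more in 2 windows, against 4.80%. Snhg3 and Snhg9 held TATA only after the annotated start, 22 and 34 bases into the gene. Snhg11, the most abundant of the hosts and the one that fell in batch 1, held neither feature in its window. Nor did Snhg9, the host that rose most in batch 1, whose run at the start had 2 letters. Other motifs were searched on both strands over the whole promoter entries, from 250 bases before to 50 bases from the start, so that a match need not lie in the letters shown. There GGGCGG lay in 6 of the 9 host entries (35.7% of promoters), CCAAT in 3 (37.4%), TGACG in 3 (20.8%) and CCGGAAG in 2 (8.86%). These are matches of letters and not measured sites.

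Likeness of pattern was measured as Pearson's r of log2(normalized count + 1), centred in each batch, over the 31 RNA libraries, among genes whose mean reached 50 in each batch. The libraries share their batch tables and depth, so the values are a description. Gas5 was most like Snord100 (r = 0.88) and Snord16a (0.87), which are snoRNAs of other hosts. Its r with its own Snord47 was 0.76, below that with Snord99 of Snhg12 (0.83). Other hosts were less like their own snoRNAs: r was 0.09 for Snhg1 with Snord22 and 0.10 for Snhg9 with Snora78. For Snhg12 it was -0.03 with Snora16a, 0.11 with Snora61 and 0.25 with Snord99. Snhg12 and Snhg3 were alike (r = 0.69), as were Snhg12 and Snhg8 (0.67) and Snhg9 and Snhg1 (0.63). Snhg11 stood apart from the other hosts, with r between -0.27 and 0.17, and was most like Srrm1 and Odf2 (0.95 for both). The nearest genes of the others were Cckbr and Amigo1 for Snhg1 (0.77), Rcor2 (0.81) and Rad1 (0.76) for Snhg3, Sgk1 (0.79) and Ranbp1 (0.77) for Snhg5, Mat2a (0.79) and Tceb1 (0.75) for Snhg8, Psmb4 (0.79) and Rnf167 (0.78) for Snhg9, and Tmem147 and Atp6v0b for Snhg12 (0.75). The 95th percentile of r over 9610 genes was between 0.40 and 0.58. Snhg6 was too low in batch 3 to be included.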

How the data were processed

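Nuclear RNA-seq (31 libraries) and ATAC-seq (6 libraries) were analysed from files that the authors deposited. According to the study's methods, the authors used STAR (mm10) for the RNA reads, collapsed duplicates through their molecular identifiers, took HTSeq counts of uniquely mapped reads and normalized these with DESeq. The deposited RNA values are therefore a signal per gene: reads over the size factor of the library, set within a batch. From the steps between low values whole reads were recovered for 100% of the values, where a value counted as whole within 0.006 plus 2e-05 of itself, and for 100% of those above 0 and below 1000. The 5 summary rows were left out of totals and tests. For batch 2, FANS replicate 3 and INTACT replicate 5 of the labels were not analysed here. For ATAC-seq the authors used Bowtie2, Picard for duplicates, and MACS2 on each library separately. The deposited lists hold a score, a fold enrichment (used as peak height) and −log10 p- and q-values of each summit, as the authors' peak caller wrote them, and their read depth is unknown.

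The host genes, the gene lists and the tests were chosen with earlier results of these data known. Techniques were compared within each batch with limma 3.58.1 (R 4.3.3; trend, two-sided) on log2(normalized count + 1), for genes that averaged at least 5, and genes were called at a Benjamini-Hochberg adjusted p under 0.05 and at least 1.5-fold. The effect was compared between batches in 1 limma fit with batch as a term. Ratios and peak heights were compared by exact permutation tests, two-sided. edgeR 4.0.16 and DESeq2 1.42.0 on the recovered reads, no filter, a pseudocount of 5, other scalings, the replicate number as a block and leaving out each library served as alternatives. The alternatives for each snoRNA, for the count of hosts without the fold threshold and for the libraries of the block were chosen after seeing the data. The fits were tested on simulated data. Genes were named by rule: the hosts, the snoRNA rows inside them, their nearest neighbours on the other strand, the 2 genes most alike in pattern, and up to 4 called genes of each list. Some genes that the rule names are not reported here. The snoRNAs of the hosts given beside a host in likeness were named after their values were seen, as were the genes of lists that passed only the adjusted p. Replicates of a batch come from 1 source, so p-values measure the spread between libraries, which may be technical.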

Additional observations from a re-analysis of the deposited data

Results flagged for a closer look

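In 6 of 102 groups of 4 to 7 libraries, the groups being each gene in each batch and technique, 1 library stood apart from the rest by Dixon's criterion, which chance gives in about 1 in 20 groups. In batch 1, Snhg1 was 212 in FANS replicate 4 against 258 to 262 in the other FANS libraries, and Snhg6 was 108 in INTACT replicate 1 against 91.8 to 94.5. Snord22 was 224 in FANS replicate 2 of batch 1 against 122 to 135, and Snora61 was 183 in FANS replicate 3 against 139 to 143. In batch 2, Snhg5 was 119 in FANS replicate 6 against 140 to 155. In batch 3, Snord47 was 256 in INTACT replicate 4 against 158 to 178. Without the library that stood apart, the log2 fold change of Snhg1 in batch 1 was 0.43 and it still passed, and that of Snord22 in batch 1 turned to 0.07.

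The effect of technique differed between batches, by the limma test of the difference itself, for Gas5 (adjusted p = 0.0116, log2 effects of 0.27, -0.06 and -0.26 in batches 1, 2 and 3), Snhg1 (0.0412, effects 0.50, 0.08 and 0.04) and Snhg5 (0.0187, effects 0.48, 0.06 and -0.13). It also differed for Snord22 (adjusted p = 0.00830, effects -0.13, -0.31 and -1.22), Snora78 (0.0206, effects -0.65, 0.19 and -0.72) and Snora16a (0.0385, effects -0.54, -0.43 and -0.97). The difference for Snora16a was lost in edgeR (adjusted p = 0.0536).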

How the results depend on the processing

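The host count of batch 1 stayed at 1 under every other alternative run and was 7 with no fold threshold (6 higher, 1 lower), and the host counts of batches 2 and 3 stayed at 0. With no fold threshold the snoRNA count was 2 in batch 1 and 1 in batch 2. Same-numbered libraries correlated at only -0.0704 to 0.112 in their deviations. In batch 3 the pairs of replicates 1, 2 and 5 (0.0192, 0.112 and 0.0288) exceeded every pair of the same FANS library with another number (highest 0.0166, 0.0407 and 0.0192). The pairs of replicates 3 and 4 there and all pairs of batches 1 and 2 did not. Whether the numbers pair the libraries was therefore not settled. With the replicate block 7 snoRNAs were called in batch 3, against 5 in the same libraries without it, and the shares of all genes in these 2 fits were not taken. Under the block the adjusted p was above 0.05 for Snhg11 in batch 1 (0.0507) and for Snora16a in batch 2 (0.264). It turned the sign for Snhg3 (-0.11), Snhg11 (-0.09), Snord47 (-0.15) and Snord99 (-0.16) in batch 2 and for Snhg1 (-0.02) and Snhg9 (-0.11) in batch 3. DESeq2 turned Snord99 in batch 2 (-0.01). Under edgeR 6 hosts differed between batches, a count without a share of all genes beside it. The cause of these changes was not tested.

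Leaving out 1 library gave 0 to 2 called snoRNAs in batch 1 (0 without FANS replicate 2), 2 to 6 in batch 3 (2 without FANS replicate 1, 6 without FANS replicate 7) and 2 to 4 ratios below the threshold in batch 3 (4 without FANS replicate 2). Hosts higher in batch 1 without the fold threshold were 6 to 7. Signs turned within these ranges: the ratio of Snhg6 (-0.38 to 0.07 in batch 1, -0.39 to 0.03 in batch 2, -0.34 to 0.08 in batch 3) and of Snhg9 in batch 2 (-0.22 to 0.18); in batch 1 Snora44 (-0.13 to 0.01), Snord22 (-0.22 to 0.07), Snord87 (-0.07 to 0.24) and Snord99 (-0.03 to 0.30); in batch 2 Snhg6 (-0.16 to 0.05), Snhg11 (-0.03 to 0.05), Snora61 (-0.06 to 0.20), Snord47 (-0.05 to 0.20) and Snord99 (-0.04 to 0.18); in batch 3 Snhg1 (-0.04 to 0.11), Snhg3 (-0.12 to 0.01) and Snhg9 (-0.04 to 0.16). None of the effects or ratios in that list passed its threshold in the reported fit.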
